A study of Mus musculus with 11 samples.

Results

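A set of 10 glycolysis and lactate genes was followed through male meiosis, namely the germ cell isozymes Gapdhs, Pgk2, Ldhc and Pgam2 and the somatic isozymes Gapdh, Ldha, Ldhb, Pgam1, Hk1 and Pfkl. Members were every probe whose symbol in the platform annotation, current or older, is 1 of these genes. This gave 19 of the 46643 probes on the array and 10 of 19406 named genes, with 6 probes for the 4 germ cell isozymes and 13 for the 6 somatic ones. The labels describe C57Bl/6 mice of 8 to 12 weeks that were wild type or heterozygous for Dnmt3L, a cofactor of the DNA methyltransferases that mark the male germ line. The heterozygous males carried 1 knockout allele, made by inserting LacZ into the gene, beside 1 wild type allele. Spermatocytes, labelled as pachytene, and round spermatids were separated by size with centrifugal elutriation, and the cells of 10 mice were pooled for each preparation. The labels give 3 wild type and 2 heterozygous spermatocyte arrays and 3 spermatid arrays of each genotype, 11 in all.

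Glycolysis splits glucose into pyruvate, and lactate dehydrogenase exchanges pyruvate with lactate. Somatic cells use GAPDH, PGK1, LDHA and LDHB and PGAM1 for these steps, whereas male germ cells make isozymes of their own from other genes. Pgk2 is known for transcription in meiotic and haploid germ cells. The GAPDHS protein sits on the fibrous sheath of the sperm tail, where glycolysis supplies ATP for swimming. Pgk2 is an autosomal copy of Pgk1, which is X-linked and is silenced with the X chromosome during meiosis. Ldhc, the germ cell lactate dehydrogenase, is known for transcription from meiotic prophase on. Pgam2 is the phosphoglycerate mutase of skeletal muscle and is made in the testis as well. Sertoli cells, the nurse cells of the tubule, supply lactate to spermatocytes and spermatids.

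The RefSeq windows upstream of the start sites (build GRCm38.p6) differed widely in composition between these genes. The 120 bases before a start are printed for the germ cell isozymes, whose cell type differences the results turn on, and for Ldha, the somatic neighbour of Ldhc on chromosome 7. Each is written 5′ to 3′ on the strand of the gene. Capitals mark matches, on either strand, to the cAMP response element TGACGTCA, its short form TGACG, the looser palindrome TGANNTCA, the GC box GGGCGG and the CCAAT box CCAAT, and matches may overlap.
Gapdhs, chr7:30743682-30743801, minus strand: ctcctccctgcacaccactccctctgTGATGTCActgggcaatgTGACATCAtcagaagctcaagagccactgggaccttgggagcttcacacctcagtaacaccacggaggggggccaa
Pgk2, chr17:40208610-40208729, minus strand: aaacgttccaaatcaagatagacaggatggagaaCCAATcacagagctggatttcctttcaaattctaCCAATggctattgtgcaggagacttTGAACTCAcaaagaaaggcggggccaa
Ldhc, chr7:46861143-46861262, plus strand: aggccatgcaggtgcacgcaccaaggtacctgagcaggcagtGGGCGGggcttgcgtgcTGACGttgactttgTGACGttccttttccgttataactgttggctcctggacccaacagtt
Pgam2, chr11:5803797-5803916, minus strand: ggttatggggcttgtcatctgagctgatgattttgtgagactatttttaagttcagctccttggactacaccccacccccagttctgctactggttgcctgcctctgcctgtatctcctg
Ldha, chr7:46845684-46845803, plus strand: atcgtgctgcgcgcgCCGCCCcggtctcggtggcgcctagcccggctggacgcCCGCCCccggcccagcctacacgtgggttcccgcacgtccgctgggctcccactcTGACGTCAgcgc

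In these letters Ldhc had TGACG beginning 61 and 47 bases before its start and a GC box at 78. Gapdhs had TGANNTCA at 94 and 76, and Pgk2 had CCAAT at 86 and 52 and TGANNTCA at 27. Ldha had the complete TGACGTCA at 12, which also matches TGANNTCA, and GC boxes at 105 and 67, while Pgam2 had no match in the stretch shown. In its full window of 250 bases Pgam2 had 1 TGANNTCA and 1 CCAAT, both upstream of that stretch. The other genes printed had no further match there. Of the somatic isozymes not printed, Hk1 had 1 TGANNTCA and Ldhb 1 CCAAT in 250 bases. Gapdh, Pgam1 and Pfkl had no match, and Pgk1, the somatic counterpart of Pgk2, had 1 GC box and 1 CCAAT. Over the 250 bases upstream of 32851 start sites of 27025 genes, TGACGTCA was present in 1.5% of windows, TGACG in 17.8%, TGANNTCA in 11.9%, GGGCGG in 32.7% and CCAAT in 33.8%. A match describes the letters of the window and not a bound site. CpG dinucleotides, the target of DNA methylation, also set the windows apart. Gapdhs and Pgam2 had 1 CpG each in 250 bases, Pgk2 had 3 and Ldhc had 8. Among the somatic isozymes Gapdh had 8, Pfkl 13, Ldhb 14, Pgam1 22 and Ldha 25. These counts and matches are those of the first start listed. Gapdhs, Ldhc, Ldha and Hk1 have a second one. Hk1 had 1 CpG at the first and 14 at the second, where Gapdhs had 0, Ldhc 3 and Ldha 9. The second window of Ldhc had neither TGACG nor a GC box, and that of Hk1 had no match. That of Ldha had 1 TGACG but no TGACGTCA or GC box. That of Gapdhs had 2 matches to TGANNTCA, at 70 and 52. They are spaced as in the first window, and windows of nearby starts can hold the same bases, so they are not counted as further sites. All windows had a median of 6 and quartiles of 2 and 16. No methylation was measured here.

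Every array had a median signal of 6.87 on the deposited log2 scale and a range of 6.40 to 13.99. Arrays of a group correlated across the probes at r = 0.987 to 0.992 in wild type spermatocytes, 0.994 in the heterozygous pair, 0.967 to 0.986 in wild type spermatids and 0.961 to 0.979 in heterozygous spermatids. Of 11 round spermatid markers tested, 10 were higher in spermatids by the wild type comparison and 7 by the heterozygous one. The shares over all probes were 11.5% and 8.65%. Only 6 of 12 pachytene markers gave a probe bright enough to test, and Sycp3, a protein of the meiotic chromosome axis, read 6.80 to 7.06 over the arrays, near the array median. None of the 6 was lower in spermatids by the test, and Nxf2, an X-linked RNA export factor, was higher in both genotypes, with wild type means of 6.83 and 7.35. Sycp2, Spo11 and Piwil1 had wild type means of 9.42, 12.19 and 12.28 in spermatocytes and 8.30, 11.60 and 11.06 in spermatids, with adjusted p = 0.123, 0.0941 and 0.163. By the methods each cell type was hybridised on a BeadChip of its own, so chip and cell type cannot be told apart in any spermatid minus spermatocyte value below. A signal stands for a pool of RNA, in which fewer cells of a type and less RNA per cell cannot be told apart either. The tests below are from limma with Benjamini-Hochberg adjustment over the 27986 probes kept and 4 contrasts together. These kept 17 of the 19 member probes and 9 of the 10 genes.

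Gapdhs, the glyceraldehyde-3-phosphate dehydrogenase of spermatids and sperm, rose steeply between the cell types in both genotypes. By its probe 2690463 the signal was 9.80, 9.11 and 9.63 on the wild type spermatocyte arrays and 9.88 and 9.78 on the heterozygous ones. The same probe read 12.33, 11.73 and 12.59 in wild type spermatids and 12.72, 11.88 and 12.70 in heterozygous spermatids. Thus the lowest spermatid array stood above the highest spermatocyte array by a wide margin, and wild type spermatocyte array 2 was the lowest of all. The log2 difference was 2.70 (SE 0.29), or 6.52-fold, in wild type (adjusted p = 0.00132) and 2.61 (SE 0.33), or 6.09-fold, in heterozygous cells (adjusted p = 0.00222). The second probe (104760204) read 9.74, 9.38 and 10.07 and then 9.96 and 9.90 in spermatocytes, and 12.14, 12.01 and 12.52 and then 12.53, 12.23 and 11.34 in spermatids. It gave a difference of 2.50 in wild type (5.64-fold, adjusted p = 0.00186) and 2.10 in heterozygous cells (4.28-fold, adjusted p = 0.0056). On heterozygous spermatid array 3 the probes disagreed, since the first read near the top of its group and the second lowest. The group means of the first probe ran in the order wild type spermatocytes (9.51 ± 0.36, SD, n = 3), heterozygous spermatocytes (9.83 ± 0.073, n = 2), wild type spermatids (12.22 ± 0.44, n = 3) and heterozygous spermatids (12.44 ± 0.48, n = 3). Neighbours in that order differed beyond their spread at the step between cell types and not between genotypes.

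The other germ cell isozymes were already bright in spermatocytes and their signals moved little. These signals lay near the top of the scale, which limits what change could be seen. Pgk2, the phosphoglycerate kinase of meiotic and haploid cells, read 12.52, 12.54 and 12.65 in wild type and 12.52 and 12.38 in heterozygous spermatocytes. In spermatids it read 13.00, 12.21 and 12.78 in wild type and 12.87, 12.56 and 12.90 in heterozygous cells. The wild type groups overlapped and the heterozygous groups did not. Neither difference passed the test, at 0.09 in wild type (SE 0.18, 95% interval -0.33 to 0.51, adjusted p = 0.879) and 0.33 in heterozygous cells (SE 0.21, interval -0.14 to 0.79, adjusted p = 0.441). Pgam2 ranged from 12.79 to 12.90 over the 5 spermatocyte arrays and from 12.46 to 13.03 over the 6 spermatid arrays. Its difference was -0.20 in wild type (SE 0.11, interval -0.46 to 0.05, adjusted p = 0.354) and -0.05 in heterozygous cells (SE 0.12, interval -0.33 to 0.23, adjusted p = 0.911). Spermatids were the more variable cells for both genes.

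Ldhc was read by 2 probes that did not behave alike. The brighter (6100463) ranged from 13.27 to 13.39 in spermatocytes and from 13.12 to 13.41 in spermatids, close to the highest signal on any array. Its difference was -0.11 (SE 0.077, adjusted p = 0.497) in wild type and 0.00 (SE 0.086, adjusted p = 0.992) in heterozygous cells. The second (2030458) read 12.50, 12.70 and 12.76 in wild type and 12.85 and 12.77 in heterozygous spermatocytes. In spermatids it read 12.35, 12.13 and 12.46 in wild type and 12.39, 12.48 and 12.12 in heterozygous cells. All of these spermatid arrays were below all spermatocyte arrays. The difference was -0.34 (SE 0.12, adjusted p = 0.111) in wild type, which did not pass, and -0.49 (SE 0.13, adjusted p = 0.0487) in heterozygous cells, or 1.4-fold lower. The call was narrow, as it was lost without either heterozygous spermatocyte array (-0.44, adjusted p = 0.22 without array 1, and -0.53, adjusted p = 0.143 without array 2); it was lost also without 7 of the other 9 arrays. The plot of germ cell isozymes shows the rise of Gapdhs beside the near level signals of the other 3 genes.

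**Figure D1:**
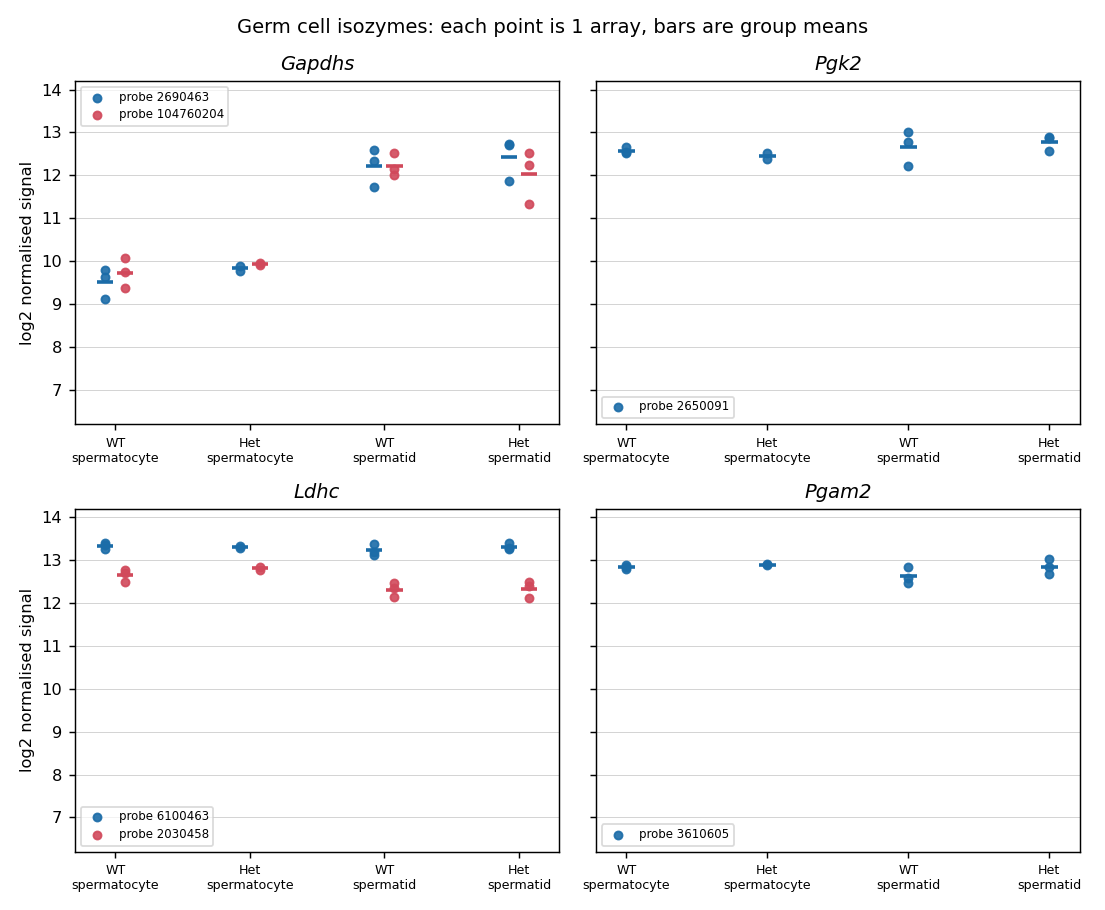
Signal (log2, vertical axis) of each germ cell isozyme probe on each of the 11 arrays, by group on the horizontal axis, with short bars for group means. Gapdhs moved from between 9.11 and 10.07 in spermatocytes to between 11.34 and 12.72 in spermatids, whereas Pgk2, Ldhc and Pgam2 stayed between 12.12 and 13.41 in both cell types.

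Of the somatic isozymes only Hk1, the hexokinase that starts glycolysis, passed the test between cell types. Its brightest probe (100580433) read 11.93, 11.80 and 12.05 in wild type and 12.00 and 12.06 in heterozygous spermatocytes. Spermatids gave 12.47, 12.76 and 12.97 in wild type and 12.90, 12.83 and 12.66 in heterozygous cells. The cell types did not overlap in either genotype. The difference was 0.80 (SE 0.13, adjusted p = 0.00541), or 1.75-fold, in wild type and 0.76 (SE 0.14, adjusted p = 0.0105), or 1.7-fold, in heterozygous cells. Without heterozygous spermatocyte array 1 the latter was 0.73 (adjusted p = 0.0631), and without array 2 it was 0.79 (adjusted p = 0.0507). A second Hk1 probe (4280402) read 7.04 to 7.23 in spermatocytes and 7.23 to 7.90 in spermatids. It gave 0.37 in wild type (SE 0.16, adjusted p = 0.213) and 0.40 in heterozygous cells (SE 0.18, adjusted p = 0.239), which did not pass. The last Hk1 probe (106590435) was too dim to test, with group means of 6.76 to 6.80. Mouse Hk1 is known to give germ cell transcripts with their own first exons, and which transcript each probe reads was not looked up here.

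Gapdh, the somatic counterpart of Gapdhs, was higher on average in spermatids by all 5 of its probes, and no probe passed. The brightest (6220161) read 11.15, 10.61 and 10.35 in wild type and 10.60 and 10.70 in heterozygous spermatocytes. In spermatids it read 11.38, 10.87 and 12.23 in wild type and 10.89, 11.67 and 11.50 in heterozygous cells. The wild type groups overlapped, since spermatocyte array 1 stood above spermatid array 2. Its difference was 0.79 in wild type (SE 0.35, interval 0.00 to 1.58, adjusted p = 0.228) and 0.71 in heterozygous cells (SE 0.39, interval -0.18 to 1.59, adjusted p = 0.365). Over the 5 probes the differences ran from 0.69 to 0.93 in wild type and from 0.60 to 0.82 in heterozygous cells. The probe with the greatest wild type value (430039) had an adjusted p of 0.111, and without wild type spermatid array 2 it became 1.19 (adjusted p = 0.0466). The 5 probes read the same arrays and are not 5 separate observations.

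Ldha, which encodes the M subunit of lactate dehydrogenase, was about as level as Ldhc. It ranged from 13.08 to 13.20 in spermatocytes and from 12.88 to 13.41 in spermatids, again near the top of the scale. The difference was -0.04 in wild type (SE 0.11, adjusted p = 0.919) and 0.13 in heterozygous cells (SE 0.13, adjusted p = 0.689). Ldhb, which encodes the H subunit, was by contrast the member that varied most between preparations of a group. Its brighter probe (1980040) read 9.90, 8.96 and 7.77 in wild type spermatocytes and 8.42 and 8.68 in heterozygous ones. Spermatids gave 9.15, 8.88 and 10.26 in wild type and 8.31, 9.81 and 9.53 in heterozygous cells. The cell types overlapped in both genotypes, and the interval was wide, at -0.79 to 1.90 around a difference of 0.56 in wild type (adjusted p = 0.716) and -0.83 to 2.17 around 0.67 in heterozygous cells (adjusted p = 0.688). The dimmer Ldhb probe (103060446) ranged only from 6.78 to 7.29, with differences of 0.03 and 0.06. Pfkl, the liver type phosphofructokinase, read 8.14, 7.75 and 7.37 in wild type and 7.73 and 7.68 in heterozygous spermatocytes. In spermatids it read 8.23, 7.94 and 8.68 in wild type and 7.53, 8.68 and 8.34 in heterozygous cells. Its differences of 0.53 (SE 0.31, adjusted p = 0.403) and 0.48 (SE 0.35, adjusted p = 0.527) did not pass. Pgam1, the phosphoglycerate mutase of most tissues, gave 6.55 to 6.74 on all arrays, below the array median, and was not tested.

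**Figure D2:**
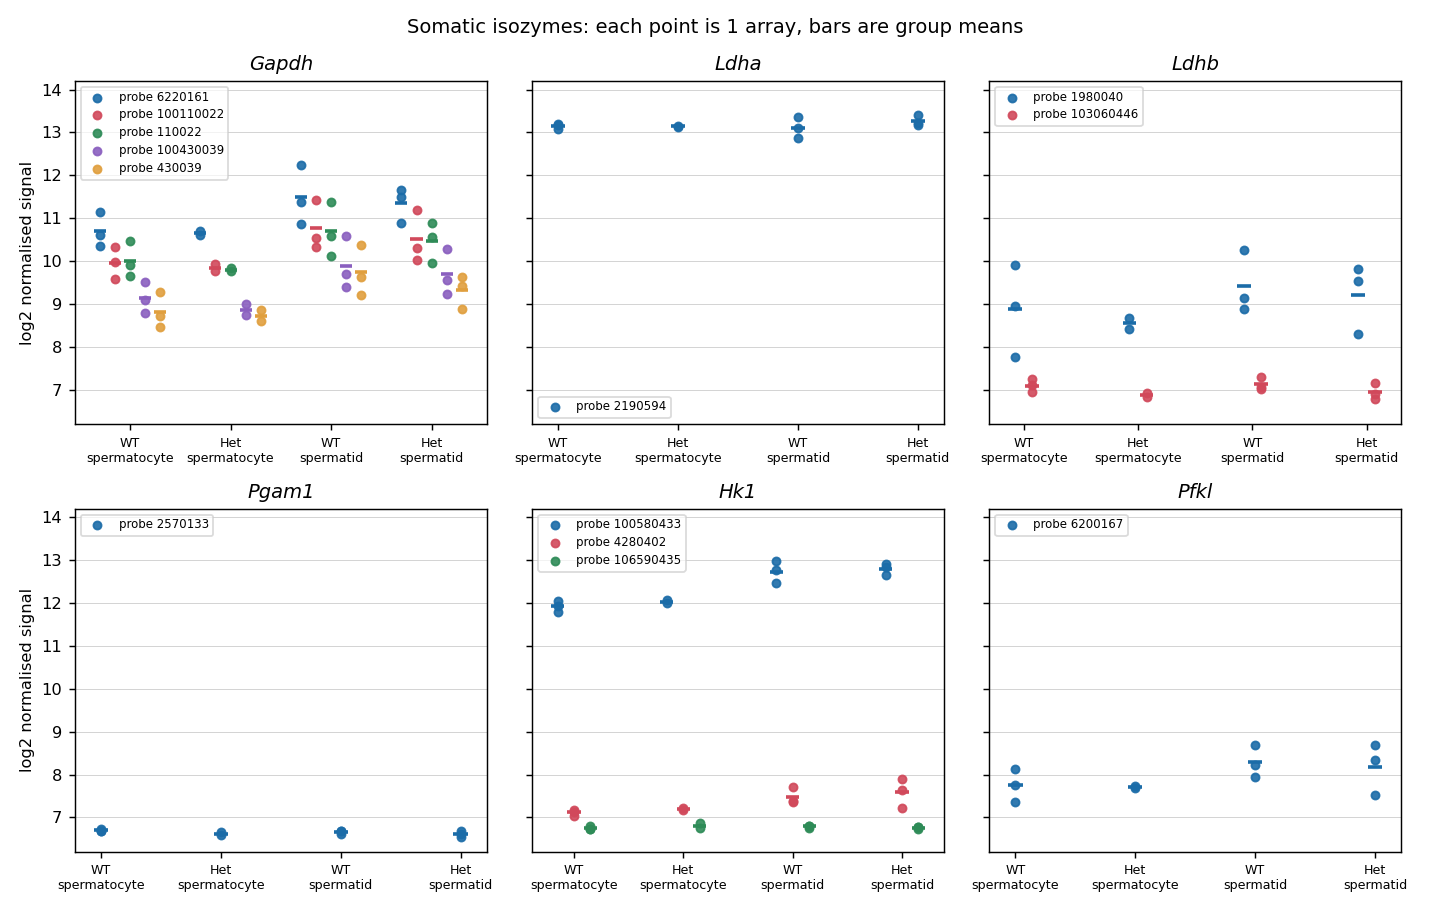
Signal (log2, vertical axis) of each somatic isozyme probe on each of the 11 arrays, by group on the horizontal axis, with short bars for group means and probes of a gene in different colours. Hk1 probe 100580433 separated the cell types, Ldha stayed between 12.88 and 13.41, and Ldhb probe 1980040 spread from 7.77 to 9.90 within wild type spermatocytes.

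Counted together, 3 of the 17 member probes tested, of 2 genes (Gapdhs and Hk1), were higher in wild type spermatids and none was lower, against 27.0% of all probes called in that contrast (11.5% higher and 15.5% lower). In heterozygous cells 3 were higher and 1, of Ldhc, was lower, against 17.8% of all probes (8.65% higher and 9.15% lower). The shares of the members were thus near the background. The median difference over the 17 probes was 0.56 in wild type and 0.60 in heterozygous cells, beside -0.03 and -0.02 over all probes. For the 6 germ cell probes it was -0.01 and 0.16, and for the 11 somatic probes 0.69 and 0.66, of which 5 are Gapdh.

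**Figure D3:**
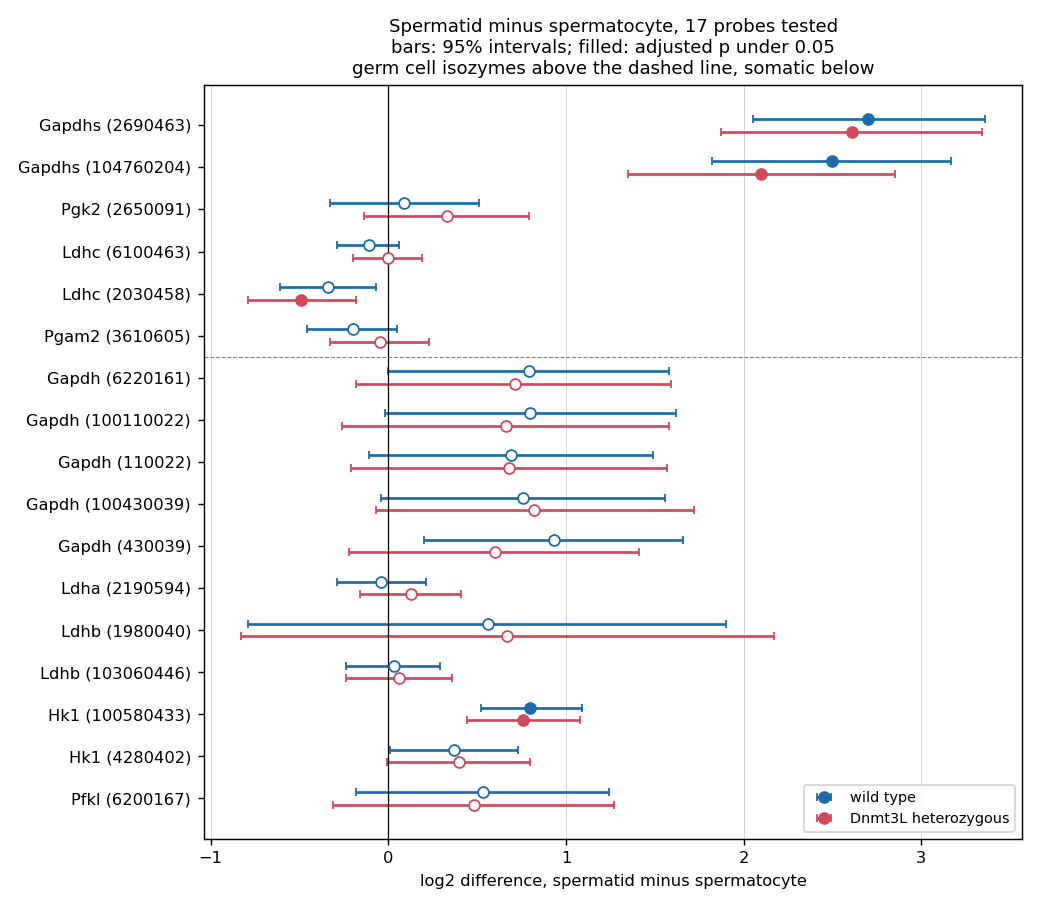
Log2 difference, spermatid minus spermatocyte (horizontal axis), for the 17 member probes tested (vertical axis), in wild type and Dnmt3L heterozygous cells, with 95% intervals and filled points for an adjusted p under 0.05. The Gapdhs probes lie between 2.10 and 2.70, Hk1 probe 100580433 at 0.80 and 0.76, and the 5 Gapdh probes between 0.60 and 0.93 with open points.

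Whether a germ cell isozyme and its somatic counterpart changed unequally was asked array by array, as the germ cell signal minus the somatic signal, with 6 spermatid against 5 spermatocyte arrays. The 5 pairs were compared by a two-sided exact permutation test over 462 arrangements of the arrays, with Pgk1 entering as the counterpart of Pgk2. Only Gapdhs against Gapdh differed. This pair value was -1.35, -1.51 and -0.72 in wild type and -0.72 and -0.93 in heterozygous spermatocytes. It was 0.95, 0.86 and 0.36 in wild type and 1.83, 0.21 and 1.20 in heterozygous spermatids. The spermatid arrays lay wholly above the spermatocyte arrays, so that Gapdhs gained 1.94 over Gapdh on the log2 scale (exact permutation p = 0.00216, the smallest this design allows, adjusted p = 0.0108 over the 5 pairs). Over these arrays Gapdhs changed by 2.69 and Gapdh by 0.74. Within 1 genotype the gain was 1.92 in wild type (exact permutation p = 0.1 over 20 arrangements) and 1.90 in heterozygous arrays (exact permutation p = 0.2 over 10 arrangements). Neither number of arrangements allows an exact permutation p below 0.1.

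In the other 4 pairs no unequal change was seen. Ldhc against Ldha changed by -0.10 (-0.06 for Ldhc and 0.04 for Ldha), and Ldhc against Ldhb by -0.64, with adjusted exact permutation p = 0.405 for each. Pgam2 against Pgam1 changed by -0.09, where Pgam1 is too dim to follow, and Pgk2 against Pgk1 by -0.15, again with adjusted exact permutation p = 0.405. Pgk1 itself (1570494) read 7.08 to 8.07 over all arrays, with a difference of 0.43 in wild type (SE 0.16, adjusted p = 0.144) and 0.27 in heterozygous cells (SE 0.18, adjusted p = 0.482). Its other probe (630300) was too dim to test, at 6.55 to 6.76 over all arrays. When the mean of all probes of a gene was used instead of the brightest one, Ldhc fell against Ldha by 0.27 (exact permutation p = 0.0195, adjusted p = 0.0487), through its second probe.

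Levels of the members across the 11 arrays fell into different patterns, given here as descriptions, since all points share arrays and each includes the step between cell types. Gapdhs and Hk1 ran together (r = 0.937), as did Gapdh with Pfkl (0.937), Ldhb with Pfkl (0.925), Gapdh with Ldhb (0.876), Pgk2 with Ldha (0.805) and Ldhc with Pgam2 (0.758). Gapdhs and Ldhc did not (r = -0.269). Of all other named genes, those most like Gapdhs were 1700029H14Rik (0.998), Sufu (0.997), a negative regulator of hedgehog signalling, and Wdr64 (0.997). Those most like Pgk2 were Trim27 (0.891), Papolb (0.882), the testis poly(A) polymerase, and Plxdc1 (0.859). The nearest to Ldhc were Rhoq (0.855), Ccl19 (0.854) and Ms4a6b (0.847), for a probe (6100463) that ranged only from 13.12 to 13.41. Pgam2 was followed most closely by Dnaaf1 (0.932), a dynein assembly factor, Cluh (0.931) and Fabp9 (0.923), a fatty acid binding protein of the acrosome. All these matches were picked as the highest among the 14187 named genes tested, on 11 arrays.

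Markers of cells that elutriated fractions may hold moved with part of these values. Averaged over 10 Sertoli cell markers, the arrays read 8.62, 8.23 and 7.59 in wild type and 7.97 and 8.05 in heterozygous spermatocytes, then 8.19, 8.02 and 8.56 in wild type and 7.53, 8.69 and 8.35 in heterozygous spermatids. Ldhb, Pfkl and Gapdh were highest in wild type spermatocytes on array 1 and lowest on array 3, highest in wild type spermatids on array 3 and lowest on array 2, and highest in heterozygous spermatids on array 2 and lowest on array 1. The Sertoli cell mean had the same highest and lowest array in each of these groups. Over 7 Leydig cell markers the means ran from 7.23 to 8.51 in wild type and 7.55 to 7.67 in heterozygous spermatocytes, and from 7.33 to 9.40 in wild type and 7.58 to 8.70 in heterozygous spermatids. The Leydig cell mean also had the same highest array as the 3 isozymes in each of these groups. It had the same lowest array in wild type cells, but in heterozygous spermatids array 3 (7.58) was lowest and array 1 read 7.65. No Sertoli cell marker of 10 and 1 of 7 Leydig cell markers (Star, which was lower) was called between cell types in either genotype. Of all probes 27.0% were called in wild type and 17.8% in heterozygous cells. Unlike Star, the Leydig cell list as a whole leaned higher in spermatids, with a median difference of 0.52 in wild type and 0.39 in heterozygous cells. The Sertoli cell medians were 0.10 and 0.16, beside -0.03 and -0.02 over all probes. Clu and Cldn11, abundant in Sertoli cells, read 9.28 to 12.12 and 9.05 to 11.38 over all arrays. The part of these cells in the levels of Gapdh, Ldhb and Pfkl was not tested.

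**Figure D4:**
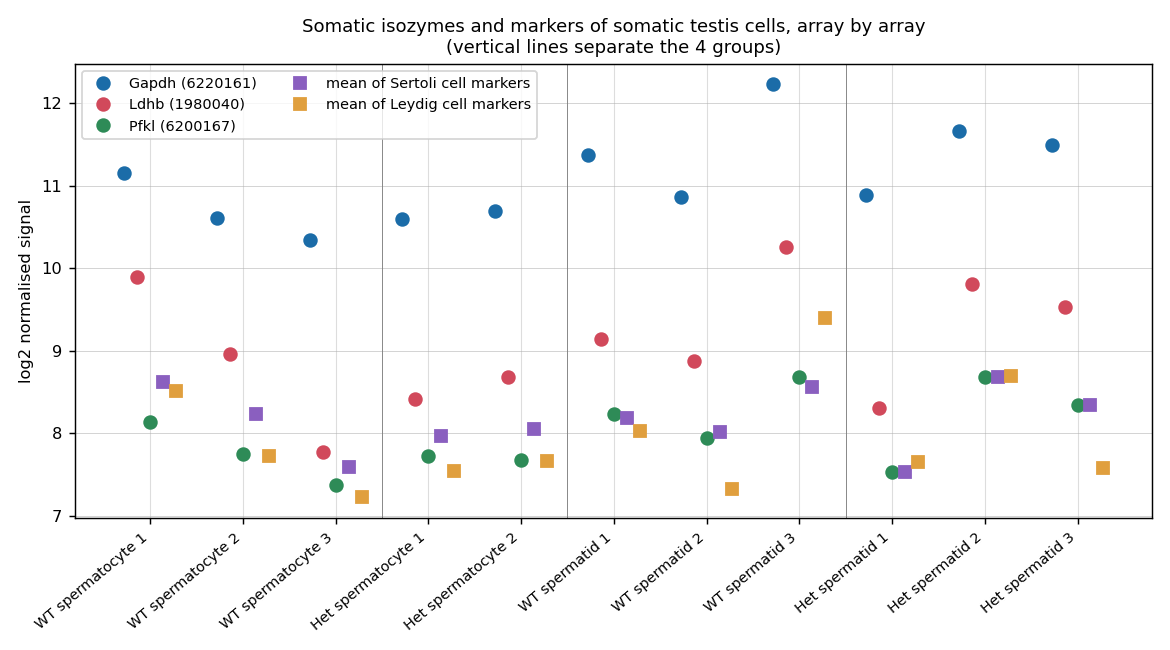
Signal (log2, vertical axis) of Gapdh, Ldhb and Pfkl and the mean signal of Sertoli and Leydig cell markers on each array (horizontal axis), with vertical lines between the 4 groups. The 3 isozymes and the Sertoli cell mean share their highest array in each group of 3, namely wild type spermatocyte array 1, array 3 of the wild type and array 2 of the heterozygous spermatids.

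Macrophage and blood markers differed more between the fractions. Their mean over 5 genes ran from 7.21 to 7.63 over the spermatocyte arrays and from 9.79 to 11.33 over the spermatid arrays. The genes were Lyz2, C1qa, C1qb, Hba-a1 and Hbb-bs. Of them 5 were higher in wild type and 4 in heterozygous spermatids, beside 11.5% and 8.65% of all probes. Of 9 listed genes 7 were on the array, and Adgre1 and Ptprc were too dim to test. The filter used the mean over all arrays, so a gene high in 1 fraction alone could pass. The marker counts here are therefore descriptions. Peritubular markers ran from 7.64 to 7.86 and from 9.02 to 10.02, with 3 of 5 and 2 of 5 genes higher. The mean over 7 spermatogonial markers ran from 7.37 to 7.49 and from 7.75 to 8.27, with 3 of 7 genes higher in wild type and 1 of 7 in heterozygous spermatids. Gapdh is made by all these cells, and their part in its values was not tested. The 11 round spermatid markers averaged 10.33, 9.50 and 10.33 in wild type spermatocytes, so array 2 was lowest, as for Gapdhs. In heterozygous spermatocytes they averaged 10.64 and 10.58, above every wild type spermatocyte array. Their lowest spermatid array was array 2 in wild type (11.97) and in heterozygous cells (11.94), as for Gapdhs probe 2690463. Without the array of each group of 3 with the highest Leydig cell mean, Gapdhs (2690463) differed by 2.66 in wild type (adjusted p = 0.00138) and 2.88 in heterozygous cells (adjusted p = 0.00109), and Hk1 (100580433) by 0.69 (adjusted p = 0.0265) and 0.75 (adjusted p = 0.0201). The Gapdh probe 6220161 then differed by 0.65 (adjusted p = 0.163) and 0.55 (adjusted p = 0.24). These arrays were chosen after the marker values had been seen.

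Among the remaining enzymes of the pathway, taken from lists of the textbook steps, single genes were called. Of 25 other glycolytic enzymes 18 were on the array and 16 tested. Of these 2 were higher and 1 lower in wild type spermatids, against 11.5% and 15.5% of all probes. In heterozygous spermatids 1 was higher and 0 lower, against 8.65% and 9.15%. Pkm, the pyruvate kinase of most tissues, ran from 8.46 to 8.95 in spermatocytes and 9.94 to 11.19 in spermatids. It rose by 1.89 (SE 0.29, adjusted p = 0.00527) in wild type and by 2.13 (SE 0.33, adjusted p = 0.00516) in heterozygous cells. Aldoa, the aldolase of muscle and most other tissues, rose by 1.10 in wild type (SE 0.25, adjusted p = 0.0235), and its heterozygous value of 1.00 narrowly missed (adjusted p = 0.0521). Eno3, the muscle enolase, fell by 1.31 in wild type (SE 0.29, adjusted p = 0.0211), against -1.07 in heterozygous cells (adjusted p = 0.0701). The median over the list was 0.05 and 0.13. The aldolase retrogenes Aldoart1 and Aldoart2 were in the list, but no probe was named for either of them alone, so they were not analysed.

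The Pfkfb enzymes set the level of fructose-2,6-bisphosphate, the activator of phosphofructokinase. Of 6 regulators tested out of 7, 2 were lower and 1 higher in wild type, against 15.5% and 11.5% of all probes. In heterozygous cells 2 were lower and 0 higher, against 9.15% and 8.65%. Pfkfb4, a testis isoform, fell by 1.14 in wild type (SE 0.23, adjusted p = 0.0162) and by 1.18 in heterozygous cells (SE 0.26, adjusted p = 0.0221). Pfkfb2 fell by 1.10 (adjusted p = 0.0193) and by 1.07 (adjusted p = 0.0329). Pfkfb3 rose by 0.58 in wild type (adjusted p = 0.0191), with 0.41 in heterozygous cells (adjusted p = 0.101). The phosphatases Tigar, Fbp1 and Fbp2 did not pass in either genotype, at -0.88 (adjusted p = 0.0924), -0.31 (adjusted p = 0.0831) and 0.01 in wild type. The list median was -0.59 in wild type and -0.53 in heterozygous cells. No gene of 10 tested for transport of glucose and lactate passed in either genotype, against 27.0% and 17.8% of all probes. In wild type 2 of them had an unadjusted p under 0.05, namely the glucose transporter Slc2a3 at -0.29 (adjusted p = 0.175) and the fructose transporter Slc2a5 at -0.21 (adjusted p = 0.164), and none did in heterozygous cells.

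Pyruvate that enters the mitochondrion is used by pyruvate dehydrogenase, which kinases switch off and phosphatases switch on. Of 10 genes tested out of 14 for this step, 2 were higher and 2 lower in wild type, against 27.0% of all probes called in either direction. In heterozygous cells 2 were higher and 0 lower, against 17.8%. Of the 6 kinases and phosphatases tested only Pdk3 and Pdp1 passed. In wild type the kinases Pdk1, Pdk2 and Pdk4 differed by -0.01, 0.50 (adjusted p = 0.169) and 0.20, and the phosphatase Pdp2 by -0.18. Pdk3, an X-linked kinase that inactivates the complex, ran from 8.42 to 8.81 in spermatocytes and from 10.41 to 11.27 in spermatids. It rose by 2.46 (SE 0.24, adjusted p = 0.000885) in wild type and 2.26 (SE 0.26, adjusted p = 0.00175) in heterozygous cells. Pdp1, the phosphatase that reactivates it, rose by 1.62 (SE 0.27, adjusted p = 0.00726) and by 1.48 (SE 0.31, adjusted p = 0.0164). Dlat and Dld, which encode subunits of the complex, fell by 1.46 (adjusted p = 0.0124) and by 0.58 (adjusted p = 0.0257) in wild type, beside -1.14 (adjusted p = 0.0506) and -0.27 (adjusted p = 0.358) in heterozygous cells. The X-linked Pdha1 differed by 0.76 in wild type (SE 0.24, adjusted p = 0.0773) and 0.55 in heterozygous cells (SE 0.26, adjusted p = 0.275), and its testis retrogene Pdha2 was too dim to test on this array.

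Loss of a Dnmt3L allele left no difference past the threshold in any member. Between heterozygous and wild type spermatocytes 0 of 17 probes were called, against 0.186% of all probes, and between the spermatids 0 of 17, against 0.440%. At an unadjusted p under 0.05 limma gave 0 members in either contrast as well, and with array weights it called 0. Gapdhs (2690463) differed by 0.32 in spermatocytes (SE 0.33, interval -0.42 to 1.06) and by 0.22 in spermatids (SE 0.29, interval -0.44 to 0.88). Its second probe (104760204) differed by 0.20 and by -0.19 (interval -0.87 to 0.48), so the probes went opposite ways in spermatids. Without the arrays highest in Leydig cell markers the first probe differed by 0.68 in spermatids (adjusted p = 0.127) and the second by -0.15 (adjusted p = 0.895). The round spermatid markers had a median difference of 0.57 between the spermatocytes of the genotypes, with 1 of 11 called, and their part in the 0.32 of Gapdhs was not tested. The smallest p among the members belonged to Pgam2 in spermatids, at 0.21 (SE 0.11, interval -0.04 to 0.46, adjusted p = 0.325). Ldhc (6100463) had the narrowest interval, from -0.22 to 0.17 in spermatocytes and -0.09 to 0.26 in spermatids, and Ldhb (1980040) the widest, from -1.82 to 1.18 and -1.56 to 1.13. The median over the members was -0.05 in spermatocytes and -0.10 in spermatids, beside 0 and 0.01 over all probes.

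**Figure D5:**
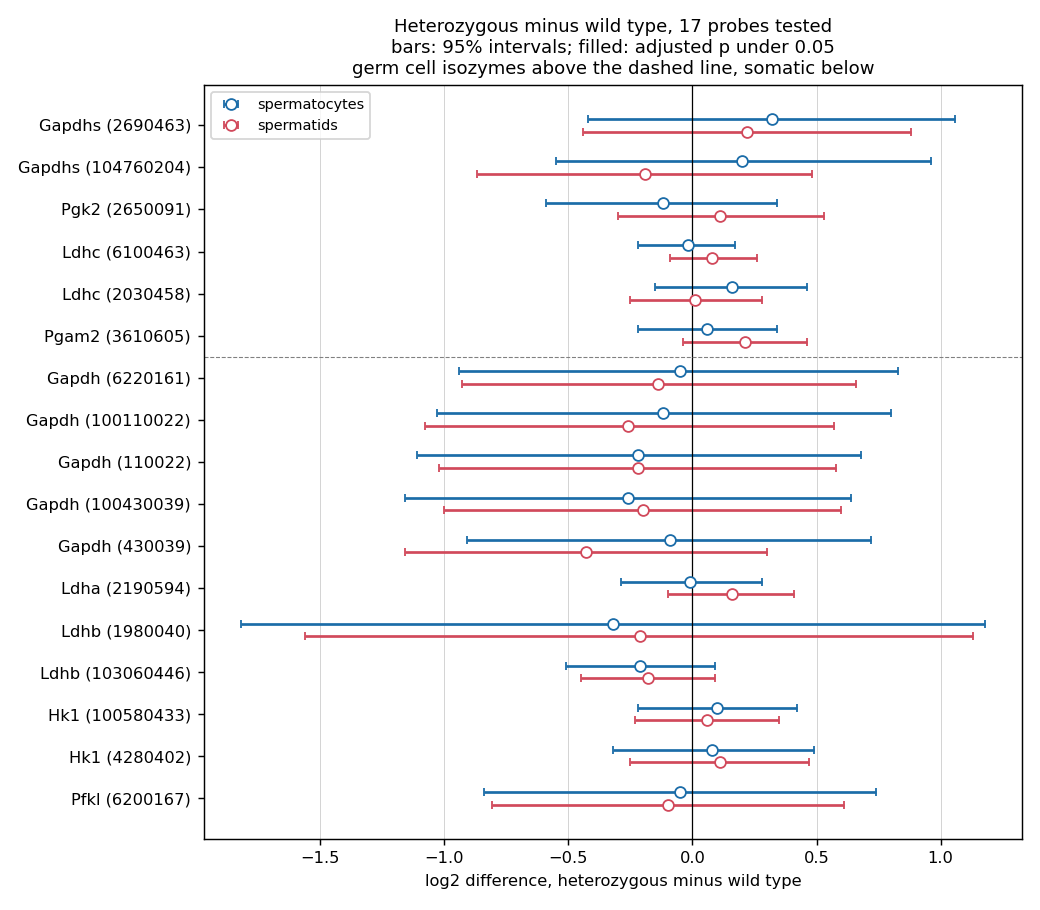
Log2 difference, heterozygous minus wild type (horizontal axis), for the 17 member probes tested (vertical axis), in spermatocytes and in spermatids, with 95% intervals and filled points for an adjusted p under 0.05. All points are open and all intervals cover 0, from the narrow interval of Ldhc probe 6100463 (-0.22 to 0.17 in spermatocytes) to the wide one of Ldhb probe 1980040 (-1.82 to 1.18).

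The step from spermatocyte to spermatid was also compared between genotypes by the interaction term of the same fit. Of all probes 0% were called, and 0 of 17 members, with 0 members at an unadjusted p under 0.05. For Gapdhs (2690463) the heterozygous step was smaller by 0.10 (SE 0.44, interval -1.09 to 0.89), and for Pgk2 it was larger by 0.24 (SE 0.28, interval -0.39 to 0.86). For Ldhc (2030458), called in heterozygous cells alone, the interaction was -0.14 (SE 0.18, interval -0.55 to 0.26), so that its step was not shown to differ between the genotypes. None of the other glycolytic enzymes, regulators, transporters or pyruvate entry genes was called between genotypes.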

How the data were processed

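RNA of spermatocytes and round spermatids was measured on 11 Illumina mouse BeadChip arrays. Groups and replicate numbers were taken from the labels. The methods describe 3 preparations for every group, and the third of heterozygous spermatocytes was not analysed here. The labels do not say whether preparations of a group were made on separate days, so p-values measure the spread between these preparations.

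The deposited values are on a log2 scale. The authors made them from BeadStudio signals with lumi, in steps of negative control subtraction, variance stabilisation and quantile normalisation, and neither tool's version is stated in the sources used here. Sorted columns differed by at most 0.00873. Quantile normalisation gives all arrays 1 distribution, so each difference is relative to the other probes. A second deposited table has 22 columns that match no label and were not used. The number of arrays limits the precision.

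Probes were named from the platform annotation, in which 32794 probes have 1 symbol, 55 several and 13794 none, and 32760 of the single symbols were found in the RefSeq table of GRCm38.p6. The dimmest 40% of probes were dropped, as the methods describe. In limma 3.58.1 (R 4.3.3, statmod 1.5.0) the 4 group means were estimated from all 11 arrays, with 7 residual and 1.89 prior degrees of freedom. Adjustment was by Benjamini-Hochberg over all probes and 4 contrasts at 0.05, and the interaction was adjusted by itself. A gene in a list or a pair was represented by its brightest probe. Pairs were tested in Python 3.11.15 by exact permutation, and figures drawn with matplotlib 3.10.9. The scripts were tested on simulated data. Promoter sequences were taken from RefSeq, and all 10 members had a window.

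The members and gene lists were chosen with earlier results of these data known. Named in the text are every member probe, the isozyme partners of the members, up to 4 called or 2 uncalled genes of each list, the 3 genes most correlated with each germ cell isozyme, and markers where a result touches them. Alternatives were no filter or one of 60%, adjustment within contrasts, only the groups compared, trend and robust priors, array weights, a replicate block, median centring, the mean of probes, single genotypes and leaving out each array. Deviations of same-numbered arrays from their group means correlated at r from -0.26 to 0.33. Between wild type and heterozygous spermatids r was 0.28, 0.33 and 0.061 for arrays 1, 2 and 3. Different-numbered arrays were not compared in this way. Replicate numbers were not taken as pairs in the main fit, and the replicate block was run as an alternative.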

Additional observations from a re-analysis of the deposited data

How the results depend on the processing

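Gapdhs by both probes kept its call and direction under all alternatives run. The second Hk1 probe (4280402) passed in wild type with only the groups compared (0.37, adjusted p = 0.0432). In heterozygous cells it passed with array weights (0.49, adjusted p = 0.0376) and without heterozygous spermatid array 2 (0.58, adjusted p = 0.0204). It passed there also without the arrays highest in Leydig cell markers (0.58, adjusted p = 0.0164), and in the other alternatives it did not pass. With array weights, whose estimation stopped before its tolerance, 7 member probes were called in wild type instead of 3 (4 higher and 3 lower, the added ones being both Ldhc probes, Pgam2 and Gapdh 430039). Leaving out each array in turn gave 3 to 4 calls in wild type, 2 to 5 in heterozygous cells, and 0 between genotypes and for the interaction. The heterozygous count fell from 4 to 2 without heterozygous spermatocyte array 1 or 2, where the other array is assumed to vary like the other groups. With a replicate block 3 probes were called in each genotype, the Ldhc probe 2030458 being lost (-0.49, adjusted p = 0.107), and Gapdhs gained 1.94 over Gapdh (exact permutation p = 0.00926 over 108 arrangements, adjusted p = 0.0463). That Ldhc call was also lost without a filter (adjusted p = 0.0722), with trend and robust priors (0.0826) and with only the groups compared (0.0864); the cause was not tested.

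Leaving out each array, the gain of Gapdhs over Gapdh ran from 1.76 to 2.08 (adjusted exact permutation p = 0.0238 to 0.0397). Ldhc against Ldha ran from -0.15 to -0.04, Ldhc against Ldhb from -0.94 to -0.38, Pgam2 against Pgam1 from -0.14 to -0.03 and Pgk2 against Pgk1 from -0.20 to -0.07, none of them past the threshold. Within wild type the gain of Gapdhs was 1.92 and within heterozygous arrays 1.90, each with adjusted exact permutation p = 0.5, where no unadjusted p below 0.1 is possible. With the mean of all probes Ldhc against Ldha was -0.27 (adjusted exact permutation p = 0.0487). For single probes 1658 values kept their side of the threshold, 10 passed it newly and 15 lost it, and no called value changed direction. The alternative starting from the bead signals was not run. Signals near the top of the scale (Ldhc, Ldha, Pgk2, Pgam2) or near its floor (Pgam1, Hk1 106590435) limit what change could be seen.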
